A study of Mus musculus with 3 samples.

Results

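The butyrophilin-like genes Btnl1, Btnl2, Btnl4 and Btnl6 and the C-type lectin genes Clec2d, Clec2e and Clec2h encode surface proteins of intestinal epithelial cells that lymphocytes can recognise. These 7 genes were chosen by symbol among the 51912 genes of the features list, and all 7 were detected and tested. They were examined in single-cell RNA sequencing (scRNA-seq) of mouse intestinal epithelium, in 2 libraries labelled Arid3a cKO (VillinCreERT2, Arid3a fl/fl) and 1 labelled WT (VillinCreERT2 without the floxed allele, the control). All mice carried the tamoxifen-inducible Cre recombinase driven by the Villin promoter, which is active throughout the intestinal epithelium, so that Arid3a was removed from epithelial cells and not from immune or stromal cells. Mice of both genotypes received tamoxifen at 8 to 10 weeks of age and were harvested 1 month after the first injection. Crypts were dissociated, and living cells positive for Epcam and negative for CD45 and CD31 were sorted. With a single WT library, a difference between genotypes and a difference between libraries cannot be told apart.

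Heteromers of Btnl1 and Btnl6 on mouse enterocytes bind the gamma delta T cell receptor of intraepithelial lymphocytes and help to select and keep these cells in the epithelium. Btnl1 also pairs with Btnl4, whereas Btnl2 restrains T cell activation. Clec2d (Clr-b) is bound by Klrb1b, an inhibitory receptor of natural killer cells, and Clec2h (Clr-f) and Clec2e (Clr-a) belong to the same lectin family, whose partners are receptors of the Klrb1 group. Ligand and receptor genes of this group are neighbours in the genome.

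After filtering, Arid3a cKO 1 retained 2134 of 6845 barcodes, Arid3a cKO 2 retained 1550 of 6893, and WT retained 1910 of 11816, at a median of 31391.5, 35764 and 29895 unique molecular identifiers (UMIs) per cell. No kept barcode was shared by the cKO libraries, and WT shared 2 and 1 with them. Arid3a had 42, 52 and 161 UMIs (0.592, 0.894 and 2.57 CPM, UMIs scaled to a common total per library), and UMIs lie at the 3′ end of the transcript, so the removed part itself was not measured. Enterocyte-like cells numbered 1171, 799 and 904, cells like intestinal stem cells (ISCs) 442, 272 and 364, and cells like transit-amplifying (TA) cells 236, 210 and 251. Goblet-like cells numbered 117, 118 and 134, enteroendocrine-like cells 58, 53 and 114, tuft-like cells 47, 27 and 50, and Paneth-like cells 34, 17 and 29. The remaining 29, 54 and 64 cells formed an unnamed cluster led by transcripts resembling ribosomal RNA. Where 3 values are given, those of Arid3a cKO 1 and 2 come before that of WT.

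The ligand genes lay in 2 clusters on GRCm38. On chromosome 17, Btnl2 (ENSMUSG00000024340, 34354822 to 34369495, plus strand) was followed by Btnl1 (ENSMUSG00000062638, 34377132 to 34386028, plus strand), Btnl4 (ENSMUSG00000058435, 34466562 to 34477318, minus strand) and Btnl6 (ENSMUSG00000092618, 34507804 to 34517352, minus strand), within 162.5 kb. Apart from Btnl1 and Btnl4, BC051142 was the only protein-coding gene between Btnl2 and Btnl6. On chromosome 6, Clec2h (ENSMUSG00000030364, 128662385 to 128677374, plus strand), Clec2e (ENSMUSG00000030155, 129091998 to 129100913, minus strand) and Clec2d (ENSMUSG00000030157, 129180615 to 129186534, plus strand) spanned 524.2 kb, and 4 Klrb1 genes lay between Clec2h and Clec2e. All 7 are protein-coding. The last 500 bases of Btnl4 and Btnl6, where these libraries were counted, were 90.7% identical over 496 aligned bases, and those of the pseudogenes Btnl7-ps and Btnl5-ps were 85.7% to 88.4% identical to both, so how reads were split among these genes is uncertain. The nearest 3′ ends to Clec2d and Clec2h were those of Clec2g (81.0% over 253 bases) and Clec2j (76.3% over 375 bases).

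The 250 bases before the RefSeq start are shown for the 5 genes whose levels along the enterocyte order or between libraries are described most fully below (GRCm38.p6, 5′ to 3′ on the strand of the gene). The windows are chr6:128662135-128662384 (plus) for Clec2h, chr6:129100904-129101153 (minus) for Clec2e, chr6:129180365-129180614 (plus) for Clec2d, chr17:34354572-34354821 (plus) for Btnl2 and chr17:34376882-34377131 (plus) for Btnl1. Capitals mark AAAGTCC, the core of sites bound by the enterocyte factor HNF4, its longer form CAAAGTCCA, and in Clec2d the core of the interferon-stimulated response element (ISRE), GAAA followed after any 2 bases by another GAAA.
Clec2h: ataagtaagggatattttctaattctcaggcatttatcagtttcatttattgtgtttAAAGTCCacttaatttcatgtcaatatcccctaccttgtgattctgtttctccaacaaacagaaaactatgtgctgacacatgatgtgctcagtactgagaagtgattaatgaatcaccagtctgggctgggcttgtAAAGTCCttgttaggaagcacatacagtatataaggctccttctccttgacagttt
Clec2e: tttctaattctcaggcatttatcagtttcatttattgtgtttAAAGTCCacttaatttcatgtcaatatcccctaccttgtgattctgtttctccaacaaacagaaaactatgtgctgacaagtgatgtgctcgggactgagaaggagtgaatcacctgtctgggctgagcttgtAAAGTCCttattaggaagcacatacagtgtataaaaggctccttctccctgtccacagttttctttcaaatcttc
Clec2d: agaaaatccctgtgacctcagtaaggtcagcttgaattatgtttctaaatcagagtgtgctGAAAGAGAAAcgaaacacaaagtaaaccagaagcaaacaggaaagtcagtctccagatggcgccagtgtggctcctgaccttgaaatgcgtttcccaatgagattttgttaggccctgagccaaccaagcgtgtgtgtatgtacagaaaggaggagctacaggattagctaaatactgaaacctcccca
Btnl2: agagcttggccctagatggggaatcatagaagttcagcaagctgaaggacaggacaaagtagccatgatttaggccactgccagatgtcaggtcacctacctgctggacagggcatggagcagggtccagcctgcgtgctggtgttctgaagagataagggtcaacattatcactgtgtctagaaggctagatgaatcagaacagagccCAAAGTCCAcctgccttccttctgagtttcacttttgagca
Btnl1: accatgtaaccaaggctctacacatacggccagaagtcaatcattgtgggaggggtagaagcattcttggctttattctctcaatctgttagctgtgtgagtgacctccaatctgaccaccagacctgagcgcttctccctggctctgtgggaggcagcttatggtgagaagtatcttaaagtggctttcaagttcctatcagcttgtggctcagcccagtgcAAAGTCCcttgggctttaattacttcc

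The windows of Clec2h and Clec2e were 81.8% identical (220 identical bases, 231 aligned, 38 in gaps), and those of Btnl4 and Btnl6 90.5%. Every other pair lay between 44.0% and 50.6%. The Btnl4 window, chr17:34475938-34476187 (minus), lay within the gene position given above. It precedes the RefSeq start of Btnl4 but not the start of that position. Each motif was searched on both strands. AAAGTCC was in 4 of the 7 windows, at 193 and 56 bases before the start of Clec2h, at 208 and 75 before that of Clec2e, at 40 before that of Btnl2 (inside the single CAAAGTCCA) and at 27 before that of Btnl1. It was in 3.58% of 32851 RefSeq windows of the same length, and CAAAGTCCA in 0.384%. TTTATNG, the core bound by CDX factors, was in Clec2h (205 bases before the start) and Clec2e (220) and in 9.81% of windows. The ISRE core began 189 bases before the start of Clec2d and was in 2.98% of windows. TTCNNNGAA, the core of the gamma-activated site (GAS), was in no member and in 7.02% of windows. ATTAAA, an AT-rich core of the kind bound by ARID3A, was in Btnl1 and in 12.7% of windows. The HNF1 core, GTTAAT followed after any base by ATT, was in no member and in 0.371% of windows. A match of letters is a description of the window and shows no binding.

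**Figure D1:**
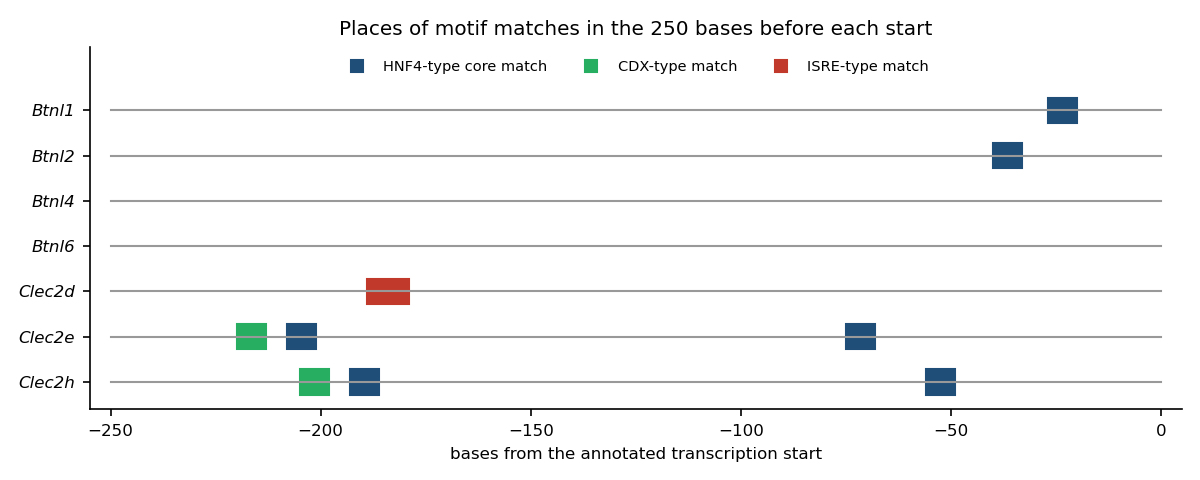
Places of motif matches in the 250 bases before the RefSeq start of each ligand gene; the x axis is the distance from the start in bases, blue boxes are AAAGTCC, green boxes TTTATNG and the red box the ISRE core. Clec2e and Clec2h show the same arrangement of 3 matches, and Btnl1 and Btnl2 each have 1 match near the start. Clec2d has the only red box, and the windows of Btnl4 and Btnl6 have none of the 3 motifs. The Btnl4 window lies within the gene position given in the text.

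To find where along the epithelium the ligands are transcribed, UMIs of each gene were summed over the cells of each class and library and divided by all UMIs of those cells (CPM, with 95% Poisson intervals that cover counting error only). As 1 UMI stands for 1 captured transcript of any length, levels of different genes can be set side by side, within the limits of capture at each 3′ end. Fewer expressing cells and less RNA per cell cannot be told apart in such sums. Clustering and ordering were done without the 7 genes.

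Clec2h was the most abundant ligand transcript of enterocyte-like cells, at 680, 870 and 746 CPM. This was 72.7% to 77.3% of the UMIs of all 7 genes there. Clec2e followed at 79.7, 91.1 and 79.8 CPM, about as high in each library. Clec2d stood at 45.8, 48.5 and 80.0 CPM, so that it took the second place in WT and the third in the cKO libraries, and in WT its interval overlapped that of Clec2e. Btnl2 stood at 42.5, 45.6 and 51.4 CPM, with intervals overlapping those of Clec2d in both cKO libraries. Btnl1 followed at 36.2, 37.2 and 38.0 CPM, below Btnl2 in each library. The partners of Btnl1 were lower, Btnl6 at 22.1, 22.2 and 22.4 CPM and Btnl4 at 9.84, 10.4 and 8.82 CPM.

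In ISC- and TA-like cells together, 6 of the 7 genes were several-fold lower. The enterocyte level exceeded that of these crypt cells 17.0- to 17.7-fold for Clec2h, 11.995- to 12.8-fold for Clec2e, 7.66- to 8.64-fold for Btnl1, 5.95- to 9.16-fold for Btnl2, 5.80- to 6.95-fold for Btnl6 and 2.31- to 2.78-fold for Btnl4. Clec2d was the exception, with 45.0, 45.1 and 72.8 CPM in crypt cells, a ratio of only 1.02 to 1.10. In the crypt cells Clec2d was the highest of the 7 genes in Arid3a cKO 1 and WT, and Clec2h, at 40.05, 49.4 and 42.1 CPM, was the highest in Arid3a cKO 2.

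**Figure D2:**
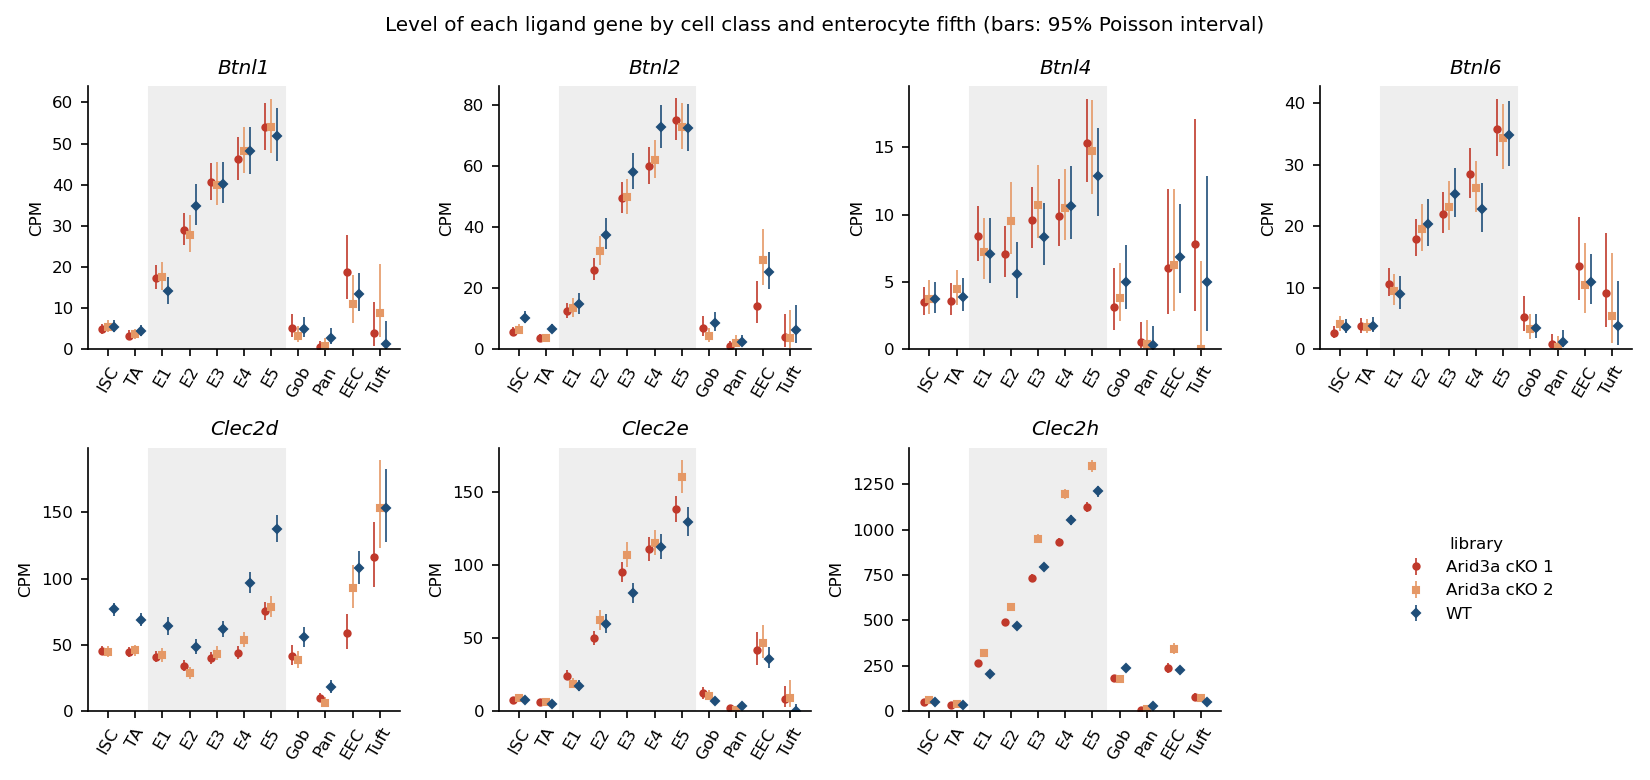
Level of each ligand gene in CPM (y axis, linear) by cell class and library; E1 to E5 on the grey ground are the 5 equal-sized bins of enterocyte-like cells from the crypt end on, Gob, Pan and EEC are goblet-, Paneth- and enteroendocrine-like cells, and bars are 95% Poisson intervals. Clec2h climbs from 202 to 319 CPM in E1 to between 1125 and 1352 CPM in E5, the Btnl genes and Clec2e climb beside it, and Clec2d is high already in ISC- and TA-like cells and highest in tuft-like cells or, in WT, also in E5.

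Enterocyte-like cells were then ordered by diffusion pseudotime from the ISC-like cells and cut into 5 bins of equal size over all libraries together. Clec2h was at 266, 319 and 202 CPM in bin 1 and at 735, 950 and 796 CPM in bin 3. In bin 5 it was at 1125, 1352 and 1211 CPM, a span of 4.22- to 6.01-fold from bin 1. Clec2e spanned 5.71- to 8.57-fold, from 24.2, 18.7 and 17.3 CPM in bin 1 to 138, 160 and 129 CPM in bin 5. Both were higher in each later bin in every library.

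Btnl2 had the widest range of the butyrophilin-like genes (4.87- to 5.97-fold). It went from 12.6, 13.5 and 14.8 CPM in bin 1 to 75.2, 72.9 and 72.3 CPM in bin 5. Btnl1 went from 17.3, 17.5 and 14.1 CPM to 54.0, 54.1 and 51.8 CPM (3.08- to 3.68-fold). In bin 1 Btnl1 was above Btnl2 in the cKO libraries, and in bin 5 it was below Btnl2 in all 3 libraries. Btnl6 followed the slope of Btnl1, from 10.7, 9.45 and 8.94 CPM to 35.8, 34.3 and 34.8 CPM (3.35- to 3.89-fold). Btnl4 had the flattest slope of the 4 Btnl genes, from 8.43, 7.26 and 7.04 CPM to 15.3, 14.7 and 12.9 CPM (1.81- to 2.03-fold).

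Clec2d did not follow this slope. Its level was 41.0, 41.8 and 63.8 CPM in bin 1 and lower in bin 2, at 34.2, 28.6 and 48.5 CPM. It was then higher in each later bin, up to 75.5, 78.5 and 137 CPM in bin 5. The dip in bin 2 was seen in each of the 3 libraries. Its bin 5 level was 1.66- to 1.79-fold that of ISC-like cells, against 22.1- to 24.1-fold for Clec2h.

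Outside the absorptive lineage, Clec2h was high in goblet-like cells, at 180, 174 and 235 CPM. The ligand UMIs were also set beside those of the apolipoprotein gene Apoa4, an abundant enterocyte transcript. Clec2h had 20.4, 22.5 and 22.3 UMIs per 100 Apoa4 UMIs in enterocyte-like cells and 84.5, 85.2 and 129 in goblet-like cells. Paneth-like cells, where Clec2h was low, had 43.3, 39.7 and 31.4. How much of these UMIs was free RNA from enterocytes was not tested. Clec2d was high in tuft-like cells, the chemosensory cells that alert type 2 immunity, at 116, 154 and 153 CPM, and was also high in the main enteroendocrine-like cluster, at 68.0, 121 and 138 CPM. Per 100 Apoa4 UMIs Clec2d had 1.38, 1.25 and 2.40 UMIs in enterocyte-like cells and 44.4, 26.6 and 52.3 in ISC- and TA-like cells. A smaller enteroendocrine-like cluster (50 cells) carried much enterocyte RNA, with Clec2h at 603, 588 and 408 CPM against 23.9, 148 and 71.4 CPM in the main cluster. Paneth-like cells had the lowest summed level of the 7 genes, 21.95, 20.5 and 56.1 CPM. Their cells held a median of 4.16 times the median UMIs of their library, so a low CPM is not a low count per cell. A Clec2h UMI was seen in 47.1%, 58.8% and 69.0% of them and in 42.8%, 42.3% and 43.7% of ISC-like cells.

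Across 33 points (11 classes or bins in each of the 3 libraries) the log2 levels of the 6 genes other than Clec2d ran in parallel, with Pearson r from 0.828 (Btnl1 and Btnl4) to 0.975 (Btnl1 and Clec2e), whereas r of Clec2d with the other 6 was 0.261 to 0.412. These points share libraries and cells, so r is a description only. Among 8663 genes of at least 20 CPM somewhere, the genes most like Btnl1 were Lrrc19 (r = 0.984), Mme (0.983), which encodes the peptidase neprilysin, and the bile acid exporter subunit gene Slc51b (0.982). For Btnl6 they included 2010106E10Rik (0.982) and Mme (0.981). Those most like Btnl2 were Gramd3 (0.986), Eci3 (0.983) and Trim30d (0.983), and those most like Btnl4 were Dnajb4 (0.925), Slc35d1 (0.922) and Rab3gap2 (0.921). Clec2e was nearest to Cyp3a13 (0.987), Hsd17b6 (0.986) and Slc6a20a (0.982), and Clec2h to Fmo5 (0.985), Slc35f5 (0.980) and the sterol transporter gene Abcg8 (0.979). Clec2d had less similar neighbours, 6430590A07Rik (0.916), Pigc (0.897) and Gnai2 (0.893).

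To count cells rather than UMIs, each cell was thinned at random to 21000 UMIs, and 1097 shallower cells of 5594 were left out. In bin 5, Clec2h was seen in 100% of cells of each library, and Clec2e in 89.4%, 95.3% and 89.1% (94.5%, 94.1% and 93.6% without thinning). Btnl2 was seen in 75.5%, 76.6% and 79.7% of these cells (85.1%, 87.6% and 87.1% without thinning) and Btnl1 in 61.2%, 65.6% and 60.9% (73.6%, 75.7% and 77.2%). Most bin 5 cells thus had UMIs of Clec2h and Clec2e, and most had UMIs of Btnl2 and Btnl1. Btnl6 was seen in 49.5%, 47.7% and 46.4% (58.3%, 59.8% and 59.1% without thinning) and Btnl4 in 20.7%, 22.7% and 26.1% (30.6%, 31.4% and 30.4%). Paneth-like cells, the class with the lowest summed CPM, were set beside these. Btnl1 was seen in 0 of 28, 0 of 14 and 0 of 25 thinned cells there, which allows shares of up to 12.3%, 23.2% and 13.7%. Without thinning its shares were 5.88%, 11.8% and 17.2%. Clec2h was seen in 14.3%, 7.14% and 24.0% of Paneth-like cells (47.1%, 58.8% and 69.0% without thinning). Their median depths were 119501, 177412 and 127390 UMIs, against 28570, 31278 and 29462 in bin 5.

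UMIs of Btnl1 and its partner Btnl6 were found in the same thinned cell in 8.19%, 9.29% and 6.62% of bin 1 cells and in 30.3%, 31.3% and 28.3% of bin 5 cells. Whether these shares exceed those that separate detection of the 2 genes would give was not tested, so they show no linked expression. At least 1 of the 4 Btnl genes was seen in 61.6%, 58.6% and 50% of bin 1 cells and in 94.7%, 97.7% and 97.1% of bin 5 cells. The median number of the 7 genes per cell went from 3, 2 and 2 in bin 1 to 5 in each library in bin 5. Of ISC-like cells, 20.4%, 24.9% and 8.25% had no UMI of any of the 7 genes.

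The libraries were then compared to ask whether the ligand genes differ when Arid3a is removed, with edgeR's quasi-likelihood test on UMIs summed per library (2 cKO libraries against 1 WT, whose spread was assumed to be like that between the cKO libraries) and Benjamini-Hochberg adjustment over all genes. In enterocyte-like cells 1 of the 7 genes passed, Clec2d, which was lower in the cKO libraries. At this threshold 2.08% of the 13261 genes tested were lower (276 genes) and 1.79% higher (238 genes), 514 in all, and DESeq2 called 90. Clec2d had 1703, 1384 and 2252 UMIs in these cells, and its log2 fold change was -0.75 (SE 0.10, edgeR adjusted p = 1.58e-07; DESeq2 adjusted p = 0.000553). Its level in the cKO libraries was 0.593 of that in WT, and the 2 cKO libraries lay closer to each other (45.8 and 48.5 CPM) than either did to WT (80.0 CPM).

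The other 6 genes did not pass the test. For the T cell ligands Btnl1 and Btnl6 the log2 fold changes were -0.04 (SE 0.10, edgeR adjusted p = 0.904) and -0.01 (SE 0.11, adjusted p = 0.989). For Btnl4 it was 0.21 (SE 0.15, edgeR adjusted p = 0.566) and for Btnl2 -0.22 (SE 0.10, adjusted p = 0.273). Btnl2 was lower than WT in both cKO libraries in enterocyte-like cells, by less than its adjusted test could separate. For Clec2e it was 0.11 (SE 0.10, edgeR adjusted p = 0.679) and for Clec2h 0.07 (SE 0.14, adjusted p = 0.880). Over enterocyte-like cells as a whole, WT lay between the cKO libraries for Clec2h, and Arid3a cKO 1 was level with WT for Clec2e. The sign of either thus depended on which cKO library was used. The signs of Btnl1 and Btnl6, both near 0, depended on it too. The median log2 ratio of the 7 genes (of CPM + 5) was -0.0122 and that of all genes tested -0.00308.

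In ISC- and TA-like cells 2 of the 7 genes passed, both lower in the cKO libraries. Of the 14396 genes tested there, 1.39% were called in either direction (200 genes, 44 with DESeq2), 0.785% lower (113 genes) and 0.604% higher (87 genes). Clec2d had a log2 fold change of -0.68 (SE 0.15, edgeR adjusted p = 0.00154; DESeq2 adjusted p = 0.0421), from 45.0, 45.1 and 72.8 CPM. Btnl2 was at 4.92, 4.97 and 8.65 CPM, with a log2 fold change of -0.80 (SE 0.22, edgeR adjusted p = 0.0224). This call of Btnl2 rested on few UMIs (122, 104 and 197) and was lost with DESeq2 (adjusted p = 1.00) and under 5 other processing settings, 1 of which, the wider cell filter, also ended that of Clec2d. Btnl1, Btnl4, Btnl6, Clec2e and Clec2h had log2 fold changes from -0.18 to 0.17 and edgeR adjusted p from 0.959 to 0.997. Over all epithelial cells 1 of 7 passed, Clec2d at 44.6, 47.5 and 75.4 CPM, with a log2 fold change of -0.67 (SE 0.10, edgeR adjusted p = 0.0234), where 0.696% of 16670 genes were called in either direction, 0.456% lower (76 genes) and 0.24% higher (40 genes).

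**Figure D3:**
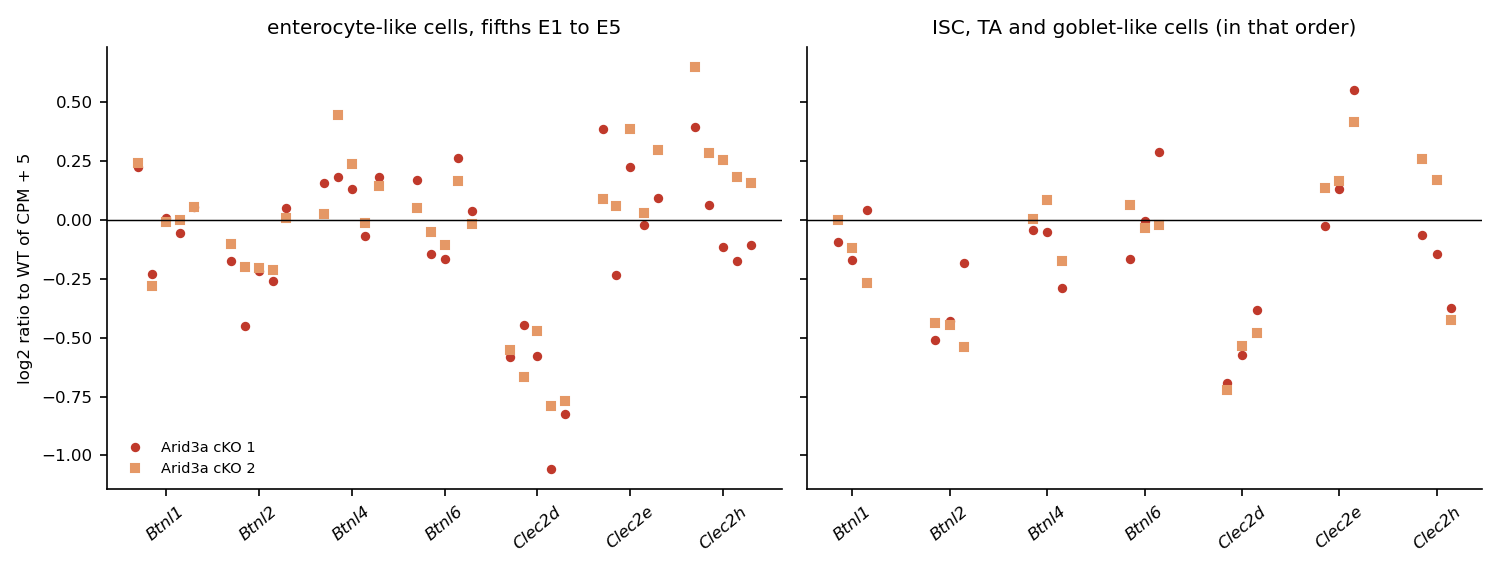
The log2 ratio of CPM + 5 in each cKO library to that in WT (y axis) for each ligand gene, in the 5 enterocyte bins (E1 to E5) from left to right (left panel) and in ISC-, TA- and goblet-like cells from left to right (right panel); each point is 1 library. All points of Clec2d lie below 0, from -0.38 to -1.06, whereas those of the other genes fall on both sides of 0 in the left panel, and those of Btnl2 lie below 0 in the right panel.

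The lower level of Clec2d was found along the whole enterocyte order. Both cKO libraries were below WT in 5 of 5 bins, with intervals apart from that of WT in each, a pattern shared by 5.5% of the genes tested without regard to intervals. The gap was widest in bin 4, at 43.8, 53.7 and 96.5 CPM, and in bin 5, at 75.5, 78.5 and 137 CPM. In bin 5, Clec2d was seen in 71.3%, 73.4% and 91.3% of cells thinned to 21000 UMIs (79.6%, 85.8% and 94.2% without thinning), and in ISC-like cells in 56.6%, 57.0% and 79.0% (66.5%, 71.0% and 84.9% without thinning). The share in Paneth-like cells was 21.4%, 0% (0 of 14 cells, which allows up to 23.2%) and 36.0% (50%, 47.1% and 65.5% without thinning).

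By class, Clec2d was lower than WT in both cKO libraries in 6 of 7 classes, with intervals apart in 3 of them. Without regard to intervals, 3.88% of genes were lower in at least 6 classes. The share with intervals apart was not counted. Clec2d was at 41.4, 38.3 and 55.5 CPM in goblet-like cells and at 9.73, 6.29 and 17.8 CPM in Paneth-like cells. Tuft-like cells were the exception, with Arid3a cKO 2 level with WT. Btnl2 was also below WT in both cKO libraries in 6 of 7 classes (3.88% of genes, without regard to intervals), with intervals apart in 3 of them. It was below WT in both in 4 of 5 bins, where 15.5% of genes were, with overlapping intervals in every bin. In bin 5, Btnl2 was at 75.2, 72.9 and 72.3 CPM, so the difference was not seen in the most mature cells. Btnl4 was above WT in both cKO libraries in 4 of 5 bins, as were 12.5% of genes, again with overlapping intervals in every bin. Clec2h was above WT in both in bin 1 and below in both in goblet-like cells (levels above), with intervals apart. It was also below in Paneth-like cells, at 7.22, 9.83 and 28.2 CPM, with intervals apart. The 9 upper villus genes listed also summed to less in the cKO libraries there, at 136, 138 and 382 CPM. Per 100 Apoa4 UMIs, Clec2h was not lower in these cells (43.3, 39.7 and 31.4). Nor were Clec2d (58.3, 25.4 and 19.8) and Btnl2 (6.67, 7.94 and 2.73), for which Paneth-like cells are among the classes counted. The part of free enterocyte RNA in these differences was not tested. In enteroendocrine- and tuft-like cells Clec2h was above, with overlapping intervals. In the main enteroendocrine-like cluster alone, the cKO libraries lay on both sides of WT, at 23.9, 148 and 71.4 CPM. Clec2e was above WT in both in 3 of 5 bins, with intervals apart in 1. The shares of all genes with these patterns were not counted.

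Clec2d was lower in the cKO libraries in every enterocyte-like cluster. It was at 38.7, 39.7 and 62.1 CPM in the early cluster led by Ccl20 and at 35.6, 32.5 and 51.7 CPM in the cluster led by Ms4a18. In the mature cluster led by Cubn and Slc5a12 it was at 59.5, 63.0 and 104 CPM. In the other mature cluster, led by S100g and Akp3, it was at 44.3, 51.7 and 91.0 CPM. Both cKO libraries were below WT in all 5 clusters, with intervals apart in each, as 4.14% of genes were without regard to intervals. The remaining cluster had Ifit3 and Isg15, genes of the interferon response, among its leading genes and held 25, 15 and 19 cells. Clec2d was highest there, at 102, 102 and 185 CPM, which is 1.62- to 1.78-fold the level of the Cubn cluster in the same library. Clec2h and Clec2e were not higher there. Clec2h was at 950, 1219 and 1096 CPM in the interferon cluster, 0.910 to 0.987 of the Cubn cluster, and Clec2e at 0.751 to 0.979.

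**Figure D4:**
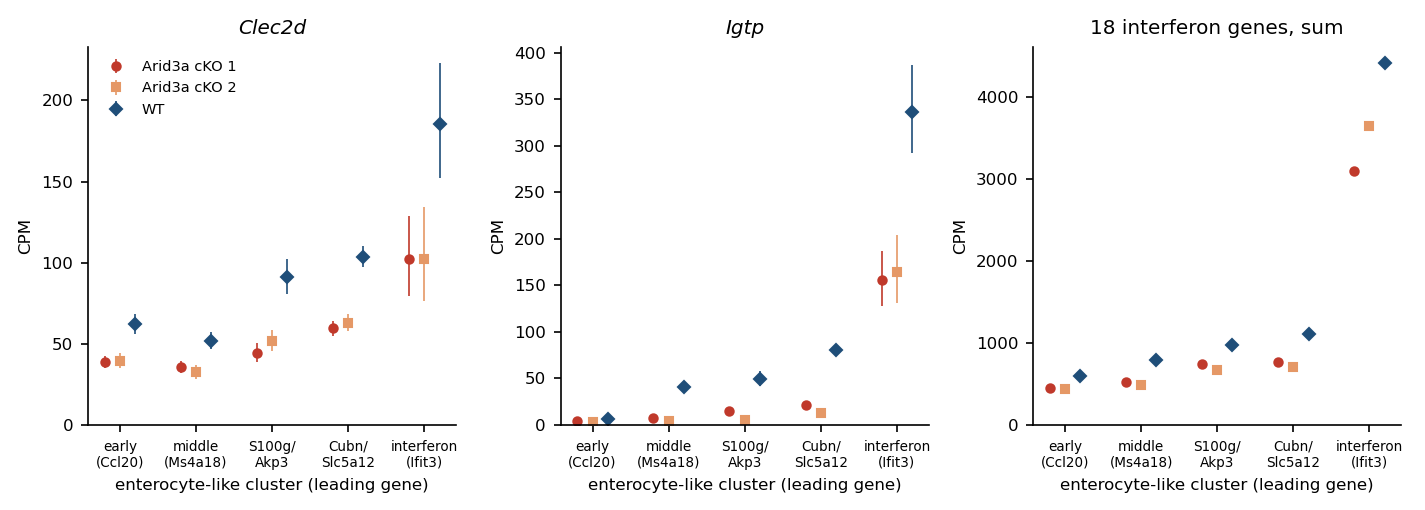
Levels in CPM (y axes, linear, each with its own scale) of Clec2d, of the interferon-response gene Igtp and of the sum over 18 interferon-response genes, in the 5 enterocyte-like clusters (x axis, with leading genes); points are libraries and bars 95% Poisson intervals, not drawn for the sum. In every cluster and panel the WT point is the highest, and every series is highest in the interferon cluster, where Clec2d is at 102, 102 and 185 CPM. Interferon-response genes, unlike Clec2d, were kept in the clustering, so their peak in that cluster is no separate result.

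Genes of the interferon response moved with Clec2d between the libraries. Of 18 such genes listed, 17 were tested in enterocyte-like cells and 11 were lower in the cKO libraries with edgeR's test (2.08% of all genes were), 5 of them also with DESeq2, and none was higher. The GTPase gene Igtp was at 14.2, 9.47 and 54.0 CPM (log2 fold change -2.17, SE 0.12, edgeR adjusted p = 1.94e-18), Ifit1 at 16.6, 14.9 and 33.7 CPM (-1.09), and the immunoproteasome subunit gene Psmb8 at 249.1, 249.8 and 360 CPM (-0.52). Others that passed were the peptide transporter gene Tap1 (-0.65), Psmb9 (-0.43), Irf1 (-0.43), Irgm1 (-0.92) and Gbp7 (-1.38), and Gbp2 and Nlrc5 at under 1 CPM. Isg15 did not pass (41.5, 44.0 and 49.7 CPM), nor did Ifit3, Rsad2, Oas1a, Bst2 and Cxcl10. The median log2 fold change of the 17 was -0.52 (all genes 0.00474), and the 18 genes summed to 653, 629 and 957 CPM. In ISC- and TA-like cells 6 of 17 were lower (1 with DESeq2), among them Igtp (-1.22) and Psmb8 (-0.82), and the sum was 344, 322 and 501 CPM.

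Without the interferon cluster, Clec2d had a log2 fold change of -0.74, so the difference was not carried by those 59 cells. Whether the level of interferon-response genes has a part in that of Clec2d was not tested. Markers of lymphocytes were near 0 in the cells compared: 18 markers summed to 0.645, 0.842 and 0.746 CPM in enterocyte-like cells, with 10, 11 and 10 of them at 0, and to 0.403, 0.622 and 0.395 CPM in ISC- and TA-like cells. Over all cells they summed to 4.40, 21.2 and 38.3 CPM, mostly from the unnamed cluster (547, 2119 and 2006 CPM). Without that cluster Clec2d was no longer called over all epithelial cells (0 of 7 genes called), nor was it with relative log expression size factors or the wider cell filter. In enterocyte-like cells the sums of 4 B and plasma cell markers were at most 0.618 CPM, of 4 myeloid markers at most 0.0538 CPM and of 5 stromal and endothelial markers at most 0.386 CPM.

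Other epithelial signals to lymphocytes were compared as a list of 25 genes, of which 17 were tested in enterocyte-like cells. None was called with edgeR or DESeq2, while 3.88% of all genes were called with edgeR in either direction. The most abundant was the chemokine gene Ccl25, which draws T cells to the small intestine, at 1331, 1319 and 1198 CPM (log2 fold change 0.15, edgeR adjusted p = 0.676). The cytokine gene Il18 was at 373, 451 and 366 CPM, H2-T3, which encodes the thymus leukaemia antigen bound by CD8, at 178, 180 and 192 CPM, and H2-T23 (Qa-1) at 171, 187 and 186 CPM. Cdh1 (E-cadherin, the ligand of the integrin CD103) was at 175, 164 and 177 CPM and Nectin2 at 129, 126 and 116 CPM. The lowest adjusted p was that of Il15ra, which presents interleukin 15 to intraepithelial lymphocytes (9.79, 9.22 and 13.0 CPM, log2 fold change -0.45, edgeR adjusted p = 0.0692). Il15 itself was at 13.0, 13.6 and 14.9 CPM (adjusted p = 0.637).

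Among the relatives of the 7 genes, 6 other butyrophilin genes were listed and 1 was tested in enterocyte-like cells, the pseudogene Btnl7-ps, at 6.32, 8.56 and 9.81 CPM (log2 fold change -0.40, edgeR adjusted p = 0.217). Of 5 other Clec2 genes none had enough UMIs to be tested. Clec2g, near Clec2e and Clec2d on chromosome 6, had 2, 0 and 0 UMIs there, and in the libraries with 0 a count of 3 UMIs would be 0.105 and 0.107 CPM. Of 8 receptor genes listed, 7 were in the features list and none was tested. Klrb1b, the receptor of Clec2d, had 2, 2 and 1 UMIs over all epithelial cells.

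**Figure D5:**
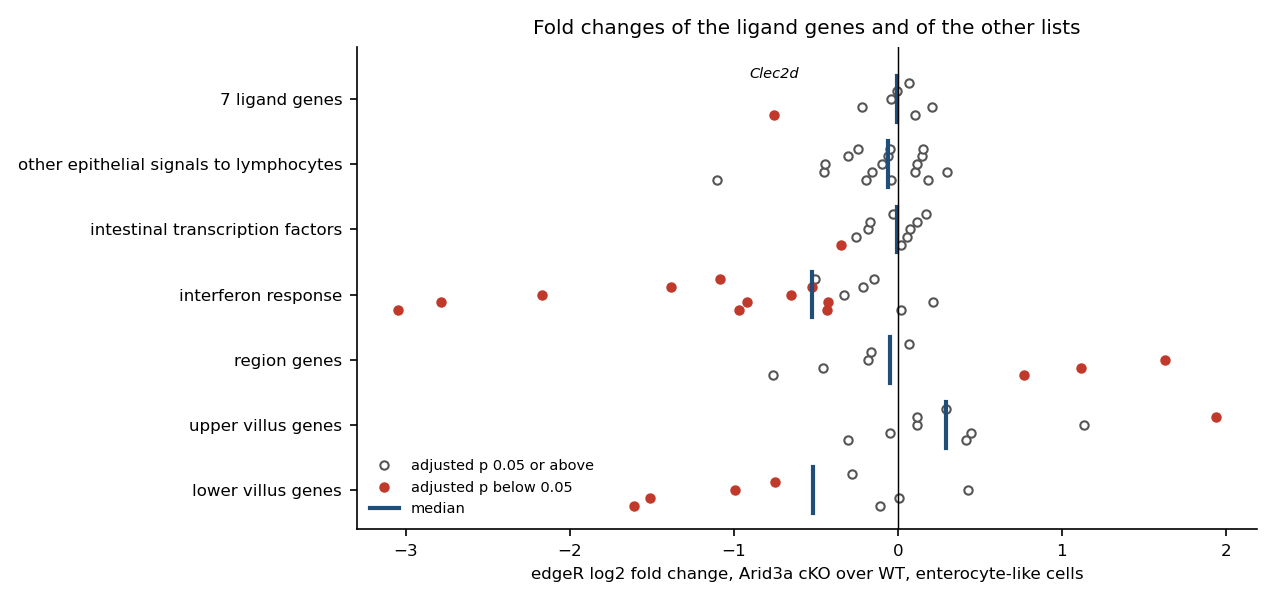
Log2 fold change (edgeR, Arid3a cKO over WT, enterocyte-like cells, x axis) of each tested gene of the ligand set and of 6 other lists; filled points have an adjusted p below 0.05, and the vertical bar is the median of the list. Clec2d is the only filled point among the 7 ligand genes, 11 of 17 interferon-response genes are filled, all to the left of 0, and none of the 17 other signals to lymphocytes is filled.

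The remaining lists described the position of the cells. Of 10 intestinal transcription factor genes 1 was lower in enterocyte-like cells, Hnf4a, at 100, 97.9 and 127 CPM (log2 fold change -0.34, edgeR adjusted p = 0.0283; DESeq2 adjusted p = 0.473). Its relative Hnf4g was at 189, 198 and 185 CPM (adjusted p = 0.793). Genes that differ along the length of the intestine were higher in 3 of 8 cases, all at the proximal end, Pdx1 (0.77), S100g (1.12) and Akp3 (1.63), 1 of them with DESeq2. S100g was at 1893, 2605 and 1044 CPM. Lower villus genes were lower in 4 of 8 cases (2 with DESeq2), the antimicrobial lectin genes Reg3b (-1.51) and Reg3g (-1.61), Gsdmc4 (-0.99) and Gpx2 (-0.75). Of 9 upper villus genes only Ada passed (1.94), at 2.90, 31.3 and 4.41 CPM, a value set by Arid3a cKO 2.

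Because these region genes differed between libraries, the ligand genes were also set against the 2 mature clusters. Clec2e was lower in the S100g and Akp3 cluster than in the Cubn and Slc5a12 cluster. It was at 91.0, 104 and 91.9 CPM against 132, 143 and 123 CPM, a ratio of 0.689 to 0.745. Within bin 4 the ratio was 0.712 to 0.729, and within bin 3 and bin 5 it was 0.702 to 0.875 and 0.729 to 0.928. For Clec2h the ratio of the clusters was 0.810 to 0.882, and for Btnl1 0.831 to 1.00. Clec2d was below WT in both cKO libraries in either cluster within bin 4, at 45.8, 53.4 and 95.8 CPM in the Cubn cluster and at 38.0, 54.2 and 94.3 CPM in the S100g cluster. Whether the region of intestine sampled has a part in the library differences was not tested.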

How the data were processed

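Droplet-based 3′ scRNA-seq was made from sorted intestinal epithelial cells as 2 Arid3a cKO libraries and 1 WT library, and whether each holds 1 animal was not given in the sources used here. The authors deposited unnormalised UMI counts per gene and barcode, made with Cell Ranger per the labels. The genome build of the counts is not settled, as the submitters' processing notes list human builds for these mouse data. Of the features, 51719 (99.6%) matched GENCODE M21 gene IDs on GRCm38, from which positions were taken, and promoters and motif windows came from RefSeq.

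Barcodes with at least 1000 genes and at most 15% mitochondrial UMIs were kept (5594 cells). Cells were integrated and clustered in Seurat 5.3.0 (3000 integration features, 30 components, resolution 0.3) and ordered by diffusion pseudotime in scanpy 1.11.5, without the 7 genes and without the lists of butyrophilin, Clec2, lymphocyte-signal and receptor genes. The interferon, region and villus genes were not left out. Clusters were named from marker lists, but the scoring rule that joined markers to clusters, and the rule that left 1 cluster unnamed, were set after the clusters were seen. Doublets were kept, and Scrublet marked 110 cells (1.97%). UMIs summed per library were tested with edgeR 4.0.16 (R 4.3.3; TMM, filterByExpr, quasi-likelihood test, two-sided, Benjamini-Hochberg adjustment over all genes, threshold 0.05), and DESeq2 1.42.0 was an alternative. The fit had 1 residual degree of freedom, from the cKO libraries. As edgeR draws the spread of each gene toward a trend over all genes, p-values rest largely on spread shared among genes. Replicate spread came only from the cKO libraries, and that of WT was not measured. The SE is the absolute log2 fold change divided by the square root of the F statistic. The test was tried on simulated data with known changes. Poisson (levels) and exact Clopper-Pearson (shares) intervals at 95% cover counting error only. CPM are counts of a gene per all UMIs of the same cells, and ratios used a pseudocount of 5 CPM. The wider cell filter was at least 500 genes and at most 25% mitochondrial UMIs.

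The 7 genes were named whatever their values, as were, from each list, the genes that passed the test in enterocyte-like cells or reached 20 CPM there, and the 3 genes nearest in profile to each ligand gene. Of all these, 2 genes are not reported here. For some lists only a part of these is printed. Interferon genes below 20 CPM that did not pass, Il15, Clec2g and Hnf4g serve as contrasts. The members and lists were chosen with earlier results of these data known. Alternatives were another size factor, no filter on low counts, wider cell filters, another resolution, no integration, doublet removal, thinning, equally weighted bins, another pseudocount and each cKO library left out.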

Additional observations from a re-analysis of the deposited data

How the results depend on the processing

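Clec2d remained the 1 gene of 7 called in enterocyte-like cells under all 12 settings that give a test, with log2 fold changes from -0.82 to -0.66 over 14 settings and adjusted p from 3.12e-13 to 0.000695. In ISC- and TA-like cells the 2 calls became 1 with relative log expression size factors, DESeq2, resolution 0.8, no integration or thinned cells, where Btnl2 was lost, and 0 with cells of at least 500 genes and at most 25% mitochondrial UMIs. Over all epithelial cells the 1 call became 0 with relative log expression size factors, with that wider cell filter and without the unnamed cluster, the last chosen after seeing the data. The median log2 ratio of the 7 genes in enterocyte-like cells was -0.0579 with the wider filter and 0.0316 with thinned cells. It ranged from -0.0612 to -0.0103 when 1 cKO library was left out. The uncalled fold changes of Btnl1 and Btnl6 changed sign, Btnl1 to 0.00366 with equally weighted bins, and Btnl6 to 0.00912 without the 5% of cells with the highest Scrublet score, 0.037 with equally weighted bins and 0.0818 with thinned cells. With 1 cKO library left out there was no residual degree of freedom and no test, and 4 uncalled genes took either sign, Btnl1 from -0.0817 to 0.00158, Btnl6 from -0.0297 to 0.0179, Clec2e from -0.01 to 0.22 and Clec2h from -0.14 to 0.25. The cause of these shifts was not tested. Calls over all genes were 514 with edgeR and 90 with DESeq2 in enterocyte-like cells, 200 with edgeR, 110 with relative log expression size factors and 44 with DESeq2 in ISC- and TA-like cells, and 116, 60 with relative log expression size factors and 677 without the filter over all cells. All 7 genes were higher in enterocyte-like than in ISC- and TA-like cells in every library, and 6 or 7 were over 9 other settings. No paired analysis was possible because WT is a single library, and 1 number in common makes no block.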

Other observations

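Few UMIs of the listed lymphocyte receptor genes were found in these cells, which were sorted as negative for CD45. The list did not hold Klrb1 itself. Over all cells Klrb1f had 5, 3 and 8 UMIs, Klrb1a 1, 2 and 2 and Klri1 0, 2 and 0, while Klrb1c and Trdv2-2 had none. In the unnamed cluster, where 18 lymphocyte markers summed to 547, 2119 and 2006 CPM, Klrb1a had 0, 1 and 2 UMIs, and both Klri1 UMIs of Arid3a cKO 2 lay there.

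In ISC- and TA-like cells, genes of the lower villus list differed between libraries. Reg3b, an antimicrobial lectin gene, was at 34.6, 31.4 and 353 CPM (edgeR log2 fold change -3.41), Reg3g (-1.25) and Gsdmc4 (-1.40) were also lower, and Reg1 was higher (0.66). Krt20, of the upper villus list, was lower (-0.53).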
